A study of Saccharomyces cerevisiae BY4741 with 4 samples.

Results

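The subject is the set of enzymes with which budding yeast makes amino acids, together with GCN4, the transcription factor that activates many of their genes. The genes were chosen by their identifiers, as enzymes of 10 synthesis pathways plus GCN4, and all 57 had a line among the 7382 features of the deposited count table. Poly(A) RNA and total RNA of exponentially growing Saccharomyces cerevisiae BY4741 were each sequenced in 2 libraries that the labels call biological replicates. All 4 libraries came from wild-type cells in YPD, a rich medium that supplies amino acids, grown at 30 °C from an OD600 of 0.05 and harvested at an OD600 of 0.6. For poly(A) RNA, polyadenylated molecules were captured on oligo-dT beads and remaining rRNA was removed with RiboZero Gold, and neither step is described for total RNA. The comparison asks whether these mRNAs kept their relative abundance when poly(A) RNA was purified, and how the pathways differ from one another.

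Gcn4 is a basic leucine zipper protein that binds DNA upstream of amino acid synthesis genes. When an amino acid runs short, uncharged tRNA activates the kinase Gcn2, general translation slows, and GCN4 mRNA, whose leader carries short upstream reading frames, is translated better. The resulting rise of the synthesis enzymes is called general amino acid control, and it acts on top of controls that belong to 1 pathway each, such as arginine repression, leucine-pathway control by Leu3 and lysine-pathway control by Lys14. BY4741 is known as a laboratory strain that needs histidine, leucine, methionine and uracil, through a partial deletion of HIS3 and deletions of LEU2, MET17 and URA3.

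The letters at the core of the Gcn4 site, TGACTC, were searched on both strands in the 400 bases before each start codon in build R64, and no other motif was searched. They occurred upstream of 40 of the 57 genes (70.2%), against 620 of 6001 nuclear protein-coding genes (10.3%). All 7 arginine genes held them, as did 6 of 7 histidine, 8 of 10 branched-chain, 4 of 5 threonine, 5 of 10 aromatic, 3 of 7 lysine, 2 of 3 proline and 1 of 3 glutamate genes, and both genes for serine and both for asparagine. The 400 bases before the start codon of GCN4 itself held none. That window takes in leader sequence, and bases farther upstream were not searched. More than 1 match stood before 71.4% of the histidine and 42.9% of the arginine genes, against 1.08% of all genes. A match of letters is a description of the sequence, not a binding site. The 30 bases around the match nearest to the start codon are shown for 6 of the arginine genes, which are described by their replicates below, for 4 histidine genes with contrasting values, and for ILV5 and HOM2, which had the lowest values among genes under 2000 bp. Each reads 5′ to 3′ on the strand of its gene, with the 6 matching bases in capitals.
ARG1, chrXV:218925-218954, plus strand: tgccgtatggaaGAGTCAtttaaaggcagg
ARG3, chrX:268473-268502, plus strand: agggtcacgtcgTGACTCatatgctttctt
ARG4, chrVIII:141564-141593, minus strand: ttagtagatgaaTGACTCactttttggata
ARG5,6, chrV:295221-295250, plus strand: ggtggtaattgaTGACTCttctattttttt
ARG8, chrXV:58567-58596, plus strand: cagctcgctatgTGACTCacttaaagtaca
CPA1, chrXV:882592-882621, plus strand: cttttcttttctTGACTCgtcgtttctttt
HIS1, chrV:265951-265980, minus strand: aagcttccaagtGAGTCAcctctaccgttg
HIS3, chrXV:721812-721841, plus strand: ccacctagcggaTGACTCtttttttttctt
HIS4, chrIII:68515-68544, minus strand: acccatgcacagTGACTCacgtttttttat
HIS5, chrIX:142714-142743, plus strand: tcttggatctgtTGACTCacttcaattgat
ILV5, chrXII:839376-839405, minus strand: gatgacctaactTGACTCaatggcttttac
HOM2, chrIV:770161-770190, plus strand: tcaagcattgatTGACTCattttcctctga
The matches shown lay between 122 bases (HIS3) and 314 bases (ARG3) before the start codon. Seen over the whole set, the test described below called 11 of the 40 genes with a match higher and 22 lower (median log2 fold change -0.25), and 10 of the 17 without one were higher and 7 lower (median 0.33). Over all features 31.0% were higher and 31.2% lower, and the difference between genes with and without a match was not tested.

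The poly(A) libraries held 52851542 and 53180654 counts and the total RNA libraries 53746838 and 75955489, of which 99.8% and 99.8% against 3.14% and 3.15% fell on nuclear coding features. The 57 genes had a median of 14193 and 16094 counts in poly(A) RNA and of 468 and 680 in total RNA, so the total RNA libraries limit the precision. Levels below are TMM-normalised RPKM, reads per kilobase of gene and library size after scaling by edgeR's trimmed mean of M-values, and they are given for replicate 1 and then replicate 2. Log2 fold changes compare poly(A) with total RNA and are relative to the typical feature, so they describe relative abundance and not RNA per cell. Adjusted p-values come from edgeR's quasi-likelihood test over 6945 features with Benjamini-Hochberg adjustment, and a gene passed when that value was under 0.05. LEU2, MET17 and URA3 had no line in the table, and the 4 genes of a cells examined stood at a median level of 85.5 in poly(A) and 80.9 in total RNA, while the 3 alpha-cell genes had medians of 0.666 in poly(A) and 0.661 in total RNA.

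The genes together took 2.35% and 2.49% of the nuclear coding counts in poly(A) RNA and 2.46% and 2.59% in total RNA. These ranges overlap, and the difference of -0.106 percentage points had an exact two-sided permutation p of 0.667, where 0.333 is the smallest that 2 against 2 libraries allow. Within this near-equal sum the genes diverged. In poly(A) RNA 21 of the 57 were called higher (36.8%) and 29 lower (50.9%), and 7 did not pass. Over all features tested the shares were 31.0% higher and 31.2% lower, and among 2938 coding features that averaged 10 or more normalised CPM, which is the same scale without the length term, they were 35.0% and 45.6%. The median log2 fold change was -0.20 for these genes, 0.04 for all features and -0.12 for the abundant coding features. The 2 poly(A) libraries lay on 1 side of both total RNA libraries in 51 of the 57 genes. They did so in 81.1% of all features and in 2664 of the 2938 abundant coding features.

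The position of zero depends on the scaling. Scaled to the sum of nuclear coding counts, the median of all features moved from 0.04 to 0.37, and 27 genes were higher and 20 lower, against 45.1% and 22.1% of all features. Of the 50 genes that had passed, 4 then had a log2 fold change above zero where they had been lower, namely LEU1 (0.03), LYS21 (0.08), THR1 (0.11) and ASN2 (0.12). Scaled to library totals, which are mostly rRNA in total RNA, the median of all features moved to 5.34. All 57 genes were then higher, as were 6860 of the 6945 features. The coding sum moves HIS1 and GLT1, at opposite ends of the set, to 1.48 and -3.06, so the genes shift together.

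**Figure D1:**
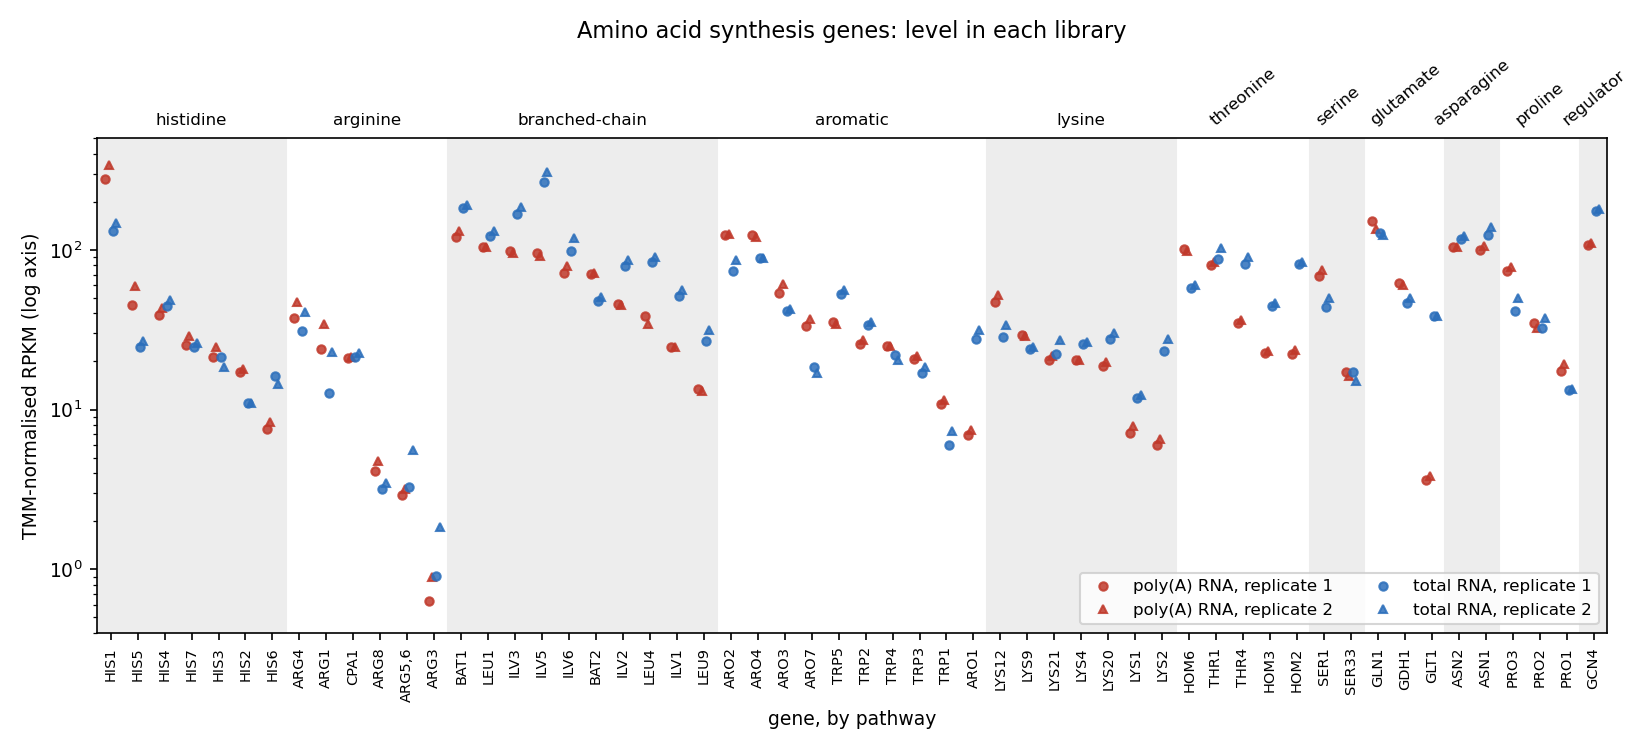
TMM-normalised RPKM (log axis) of 56 of the genes in the 4 libraries, grouped by pathway and sorted by the poly(A) level, with poly(A) RNA in red and total RNA in blue. HIS1 is highest in poly(A) RNA at 279 and 342, ILV5 in total RNA at 265 and 306, and ARG3 is lowest in both.

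GCN4 mRNA (YEL009C) was abundant and lower in poly(A) RNA. It stood at 107 and 110.3 in poly(A) RNA and at 175 and 179 in total RNA, so the groups did not overlap and differed by far more than the replicates. Its log2 fold change was -0.71 (SE 0.07, adjusted p = 4.08e-08). By level it ranked at the percentile 95.6 of coding genes in poly(A) RNA and at 97.6 in total RNA. The gene (chromosome V, 138918 to 139763, minus strand) is 846 bp long as annotated, which leaves out the leader. Its decrease was smaller, at -0.38, when scaled to the coding sum. It was larger, at -1.01, once the trend with gene length described below was removed.

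Histidine synthesis held both the largest rise of the set and a clear decrease. HIS1 (YER055C), the ATP phosphoribosyltransferase that opens the pathway (chromosome V, 264892 to 265785), stood at 279 and 342 in poly(A) RNA and at 131 and 148 in total RNA, a difference of 1.15 on the log2 scale (SE 0.09, adjusted p = 4.45e-10). The poly(A) values lay well above the total RNA values, and those of poly(A) RNA also differed from each other. HIS5 (YIL116W), the histidinol-phosphate aminotransferase, had 45.4 and 59.0 in poly(A) RNA against 24.5 and 26.8 in total RNA and rose by 1.02 (SE 0.11, adjusted p = 8.4e-08). HIS2, the histidinol phosphatase that acts between HIS5 and the last enzyme, rose by 0.69 (SE 0.11). HIS6 (YIL020C), the isomerase of the pathway, had 7.52 and 8.34 in poly(A) RNA against 16.2 and 14.5 in total RNA and fell by 0.95 on the log2 scale (SE 0.13, adjusted p = 1.29e-06). It is a short gene of 786 bp, so it departed from the length trend, and its value without that trend was -1.29.

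The other 3 histidine genes did not pass. Of the 7, 42.9% were higher and 14.3% lower, against 31.0% and 31.2% of all features. HIS4 (YCL030C), a multifunctional enzyme of several steps, had -0.18 (SE 0.08, adjusted p = 0.0583). Its values of 39.1 and 43.1 in poly(A) RNA nonetheless lay below those of 44.4 and 48.6 in total RNA. Its call depended on the setting. HIS4 was lower with a replicate block, DESeq2's size factors or a filter at 10 CPM (adjusted p = 0.00983, 0.0446 and 0.015). It was not called by DESeq2's Wald test (adjusted p = 0.0712). With the length trend described below removed it was higher, at 0.58 (adjusted p = 3.83e-06). With libraries left out its value ran from -0.24 to -0.072. HIS7, the glutamine amidotransferase and cyclase, had 0.10 (SE 0.09) with overlapping groups. HIS3 (YOR202W), the imidazoleglycerol-phosphate dehydratase, had 4686 and 5481 counts in poly(A) RNA and 124 and 145 in total RNA, so reads were counted on the partly deleted gene. Its levels of 21.4 and 24.5 in poly(A) RNA and 21.5 and 18.5 in total RNA overlapped (log2 fold change 0.21, SE 0.12, adjusted p = 0.134). HIS3 passed without poly(A) replicate 1 or total RNA replicate 1, at 0.35 and 0.32 (adjusted p = 0.0317 and 0.0496). They were computed with the annotated length of 663 bp, which is that of the intact gene, and the table does not show where in the gene the reads lie. Summed, histidine synthesis took 0.329% ± 0.0434 (SD, n = 2) of coding counts in poly(A) RNA and 0.174% ± 0.00465 in total RNA. The ratio was 1.89 (exact permutation p = 0.333). This sum leans on HIS1, with 82502 and 103016 counts in poly(A) RNA and 1019 and 1562 in total RNA. HIS4, next by counts, had 30969 and 34820 in poly(A) RNA and 927 and 1381 in total RNA.

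The genes of arginine synthesis went both ways: 2 higher (28.6%), 3 lower (42.9%) and 2 that did not pass (median log2 fold change -0.06). The shares were 31.0% higher and 31.2% lower over all features, and 35.0% and 45.6% among abundant coding features. ARG1 (YOL058W), argininosuccinate synthetase, had 23.8 and 34.6 in poly(A) RNA and 12.6 and 22.9 in total RNA. The groups were separate by a narrow margin, since the replicates of each differed widely, and the log2 fold change of ARG1 was 0.68 (SE 0.18, adjusted p = 0.00205). Without total RNA replicate 1 or poly(A) replicate 2 the value of ARG1 was 0.36 or 0.40, without total RNA replicate 2 it was 1.21, and DESeq2's Wald test did not call it (adjusted p = 0.234). ARG8, the acetylornithine aminotransferase of mitochondria, rose by 0.42 (SE 0.17, adjusted p = 0.043). DESeq2's Wald test did not call ARG8 (adjusted p = 0.128). Nor did edgeR with DESeq2's size factors or a filter at 10 CPM (adjusted p = 0.0703 and 0.0742). The call was also lost without poly(A) replicate 2, total RNA replicate 1 or total RNA replicate 2, at 0.32, 0.37 and 0.49. ARG4 (YHR018C), argininosuccinate lyase, had the highest level of the pathway in poly(A) RNA at 37.4 and 47.3, against 31.1 and 41.0 in total RNA, so the groups overlapped (0.22, SE 0.12, adjusted p = 0.101). It passed with a replicate block, at 0.23 (adjusted p = 0.00323), and without poly(A) replicate 1 or total RNA replicate 2, at 0.42 and 0.45.

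The lowest arginine gene was ARG3 (YJL088W), ornithine carbamoyltransferase, with 213 and 306 counts in poly(A) RNA and only 8 and 22 in total RNA. Its levels were 0.634 and 0.893 in poly(A) RNA and 0.903 and 1.83 in total RNA, which is at percentiles 5.92 and 8.82 of coding genes. The log2 fold change was -0.90 (SE 0.37, adjusted p = 0.0408). DESeq2's Wald test did not call ARG3 (adjusted p = 0.0678). Nor did edgeR with DESeq2's size factors, the coding sum or no filter on low counts (adjusted p = 0.0533, 0.188 and 0.0708). The call was also lost without poly(A) replicate 1, at -0.63, and without total RNA replicate 2, at -0.24. ARG5,6, a precursor of the kinase and reductase of the acetylated branch, fell by 0.59 on the log2 scale (SE 0.15). It also had a line shared with an overlapping reading frame. That line held 11.7% and 11.1% of the reads of both lines in poly(A) RNA but 26.0% and 18.5% in total RNA. Which feature those reads came from is not known. With those reads added the log2 fold change of ARG5,6 was -0.75, and leaving out total RNA replicate 2 gave -0.11 with no call (adjusted p = 0.653). CPA1 (YOR303W), which encodes a subunit of carbamoyl phosphate synthetase and is 1236 bp long, had 20.9 and 21.4 in poly(A) RNA and 21.2 and 22.7 in total RNA (log2 fold change -0.06, SE 0.09, adjusted p = 0.611).

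Branched-chain amino acid synthesis was mostly lower in poly(A) RNA. Of its 10 genes 9 were lower in poly(A) RNA (90%) and 1 higher (10%), against 31.2% and 31.0% of all features. The median log2 fold change was -0.87, and the 9 fell between 0.29 and 1.62 on the log2 scale. Scaled to the coding sum, 8 were lower and 1 higher, against 22.1% and 45.1% of all features, and LEU1 then had 0.03. The pathway took 0.664% ± 0.00687 (SD, n = 2) of coding counts in poly(A) RNA and 0.911% ± 0.0373 in total RNA, the largest share of the 10 pathways in both fractions.

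ILV5 (YLR355C), the acetohydroxyacid reductoisomerase of mitochondria, which also binds mitochondrial DNA, had 94.9 and 91.5 in poly(A) RNA and 265 and 306 in total RNA. It was the most abundant gene of the whole set in total RNA, and its log2 fold change was -1.62 (SE 0.08, adjusted p = 1.23e-13). ILV3 (YJR016C), the dihydroxyacid dehydratase of the same chain of reactions, had 98.3 and 95.9 in poly(A) RNA against 169 and 186 in total RNA (-0.87, SE 0.08). ILV2, the catalytic subunit of acetolactate synthase, and ILV6, its regulatory subunit, had -0.86 and -0.53 (SE 0.08 and 0.09). ILV1, the threonine deaminase that feeds isoleucine synthesis, fell by 1.12 (SE 0.08). LEU1, the isopropylmalate isomerase of the cytosol, had the smallest decrease, -0.29 (SE 0.07, adjusted p = 0.00177), with 104 and 104 in poly(A) RNA and 122 and 132 in total RNA. LEU4 and LEU9, both isopropylmalate synthases, are described with the isozymes.

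Aromatic synthesis had more genes higher, with 7 of 10 higher (70%), 3 lower (30%) and a median of 0.35. Over all features 31.0% were higher and 31.2% lower, so the share of lower genes was near that of all features. With DESeq2's size factors, DESeq2's Wald test or the filter at 10 CPM, 5 were higher and 3 lower. Of all features these settings called 2052 higher and 2193 lower of 6945, 1829 and 2092 of 6675, and 1923 and 1954 of 5479. ARO7 (YPR060C), the chorismate mutase that leads to phenylalanine and tyrosine, had 33.3 and 36.8 in poly(A) RNA against 18.5 and 17.0 in total RNA, a difference of 0.99 on the log2 scale (SE 0.11, adjusted p = 9.17e-08). ARO2 (YGL148W), chorismate synthase, had 123 and 126 in poly(A) RNA against 73.6 and 86.7 in total RNA, a poly(A) level that did not differ from that of ARO4 beyond their spread (0.63, SE 0.08, adjusted p = 1.05e-06). ARO1 (YDR127W), a single long protein of 5 shikimate-pathway activities, had 6.94 and 7.43 in poly(A) RNA against 27.6 and 31.6 in total RNA. With 4767 bp (chromosome IV, 704484 to 709250) it fell by 2.05 on the log2 scale (SE 0.08, adjusted p = 5.21e-15).

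The tryptophan branch spread around zero. TRP1, TRP3 and TRP4 rose by 0.72, 0.25 and 0.25 (SE 0.16, 0.10 and 0.10), and TRP2 and TRP5 fell by 0.38 and 0.65 (SE 0.08 for both). TRP2 and TRP3 form anthranilate synthase, and their adjusted p-values were 0.000516 for TRP2 and 0.0262 for TRP3. TRP3 was not called without poly(A) replicate 2 or total RNA replicate 1 (adjusted p = 0.0863 and 0.133) or by DESeq2's Wald test (adjusted p = 0.0768). TRP2 was not called under the coding sum, at -0.058 (adjusted p = 0.543), or with the length trend removed, at -0.13 (adjusted p = 0.206). TRP4 was not called without total RNA replicate 2 (adjusted p = 0.175) or by DESeq2's Wald test (adjusted p = 0.0761). TRP4 is the next enzyme, anthranilate phosphoribosyltransferase, TRP1 the isomerase after it, and TRP5 the synthase that releases tryptophan. TRP1 also had a line shared with the overlapping YDR008C. That line held 39.4% and 40.2% of the reads of both lines in poly(A) RNA and 36.4% and 37.2% in total RNA. Which gene those reads came from is not known. Without them the levels of TRP1 were 10.9 and 11.4 in poly(A) RNA and 5.95 and 7.39 in total RNA, which may be too low. With them its log2 fold change was 0.79.

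Lysine synthesis, which runs through alpha-aminoadipate in fungi, had 2 genes higher (28.6%) and 5 lower (71.4%), against 31.0% and 31.2% of all features (median -0.36). LYS12 (YIL094C), homoisocitrate dehydrogenase, had 47.0 and 52.3 in poly(A) RNA against 28.6 and 33.7 in total RNA (log2 fold change 0.66, SE 0.10, adjusted p = 3.71e-06), and LYS9, a saccharopine dehydrogenase, rose by 0.26 (SE 0.09), which was not called without total RNA replicate 1 (adjusted p = 0.0515). LYS2 (YBR115C), the aminoadipate reductase, had 6.03 and 6.51 in poly(A) RNA against 23.4 and 27.7 in total RNA. It is 4179 bp long, and its log2 fold change was -2.03 (SE 0.09, adjusted p = 1.53e-14). LYS1, the saccharopine dehydrogenase of the last step, fell by 0.69 (SE 0.12) at only 1122 bp, and LYS4, homoaconitase, by 0.36 (SE 0.08). LYS4 had -0.038 with no call under the coding sum (adjusted p = 0.685) and 0.23 with the length trend removed.

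Threonine synthesis from aspartate had 4 of 5 genes lower (80%) and 1 higher (20%), against 31.2% and 31.0% of all features. The median was -0.99, and 2 of its enzymes of nearly equal length lay far apart. HOM2 (YDR158W), aspartate semialdehyde dehydrogenase (1098 bp, chromosome IV, 770357 to 771454), had 22.2 and 23.4 in poly(A) RNA against 82.1 and 83.7 in total RNA, a difference of -1.86 on the log2 scale (SE 0.08, adjusted p = 1.42e-14). HOM6 (YJR139C), the homoserine dehydrogenase that acts on its product (1080 bp), had 101 and 97.9 in poly(A) RNA against 58.0 and 60.6 in total RNA, a difference of 0.74 on the log2 scale (SE 0.08, adjusted p = 4.96e-08). In total RNA HOM2 was above HOM6 in both libraries, and in poly(A) RNA it was below HOM6 in both. THR4, threonine synthase, and HOM3, aspartate kinase, fell by 1.28 and 0.99 (SE 0.08 for both), and THR1, homoserine kinase, by 0.21 (SE 0.08, adjusted p = 0.031). The call of THR1 was lost without poly(A) replicate 1 or total RNA replicate 2 (adjusted p = 0.188 and 0.474).

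The smaller groups were mixed. GLT1 (YDL171C), glutamate synthase, is the longest gene of the set at 6438 bp (chromosome IV, 149203 to 155640) and had the lowest value of all, with 3.62 and 3.83 in poly(A) RNA against 38.5 and 38.8 in total RNA, a 10.4-fold decrease (-3.38 on the log2 scale, SE 0.08, adjusted p = 1.91e-19). GDH1, the NADPH-linked glutamate dehydrogenase, rose by 0.33 (SE 0.08, adjusted p = 0.00111), and GLN1, glutamine synthetase, by 0.19 (SE 0.08, adjusted p = 0.0364). GLN1 was the second most abundant enzyme mRNA of the set in poly(A) RNA, with 151 and 135 against 127 and 124 in total RNA. DESeq2's Wald test did not call GLN1 (adjusted p = 0.0933), nor did edgeR without poly(A) replicate 1 or without total RNA replicate 2 (adjusted p = 0.139 and 0.1).

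Of the genes for serine from 3-phosphoglycerate, SER1 (YOR184W), the aminotransferase, had 69.0 and 74.8 in poly(A) RNA against 44.2 and 50.1 in total RNA (0.60, SE 0.09, adjusted p = 3.25e-06). SER33, a phosphoglycerate dehydrogenase, had 17.2 and 16.3 in poly(A) RNA and 17.2 and 15.1 in total RNA and did not pass (0.06, SE 0.10, adjusted p = 0.62). In proline synthesis PRO3 (YER023W), the reductase of the last step, had 73.8 and 78.5 in poly(A) RNA against 41.6 and 50.0 in total RNA (0.72, SE 0.09, adjusted p = 7.18e-07). PRO3 also had a line shared with an overlapping feature. That line held 16.3% and 15.9% of the reads of both lines in poly(A) RNA and 16.6% and 17.6% in total RNA. PRO1, glutamate kinase, had 17.5 and 19.3 in poly(A) RNA against 13.3 and 13.4 in total RNA (0.46, SE 0.11, adjusted p = 0.00064). PRO2, the enzyme between them, had 34.6 and 32.4 in poly(A) RNA and 32.3 and 37.5 in total RNA (-0.07, SE 0.09, adjusted p = 0.551).

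**Figure D2:**
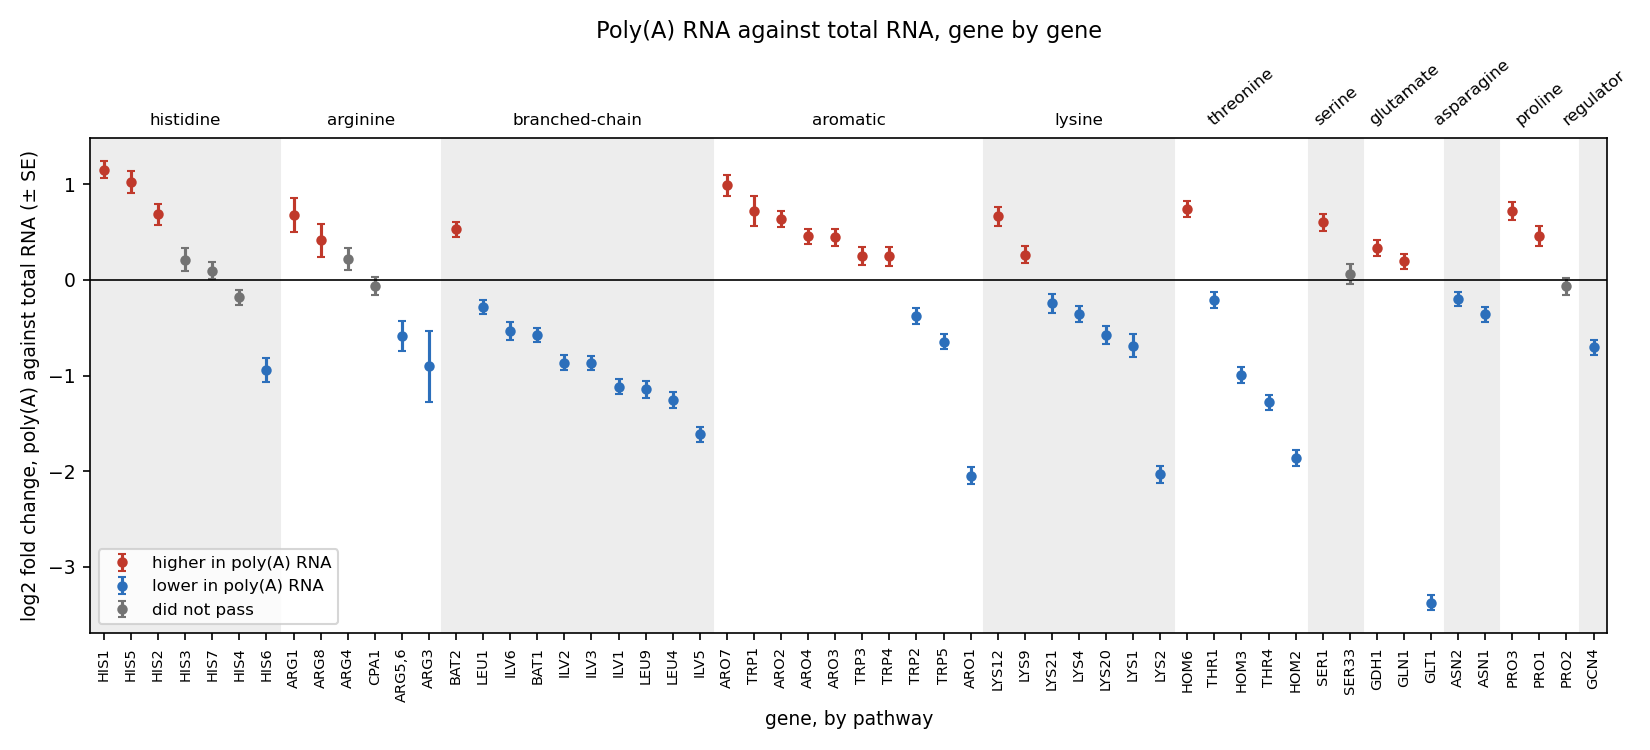
Log2 fold change of 56 of the genes, poly(A) against total RNA, with its SE as bars, grouped by pathway and sorted within it. Genes higher in poly(A) RNA by edgeR's test are red, lower ones blue, and those that did not pass grey. Of the branched-chain genes 9 of 10 lie below zero and of the aromatic genes 7 of 10 above it, relative to the typical feature.

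Gene length ran with these values. Of the 10 genes over 2000 bp, 9 were lower and HIS4 did not pass (median -0.76), and 76.3% of the 1281 coding genes of that length in the table were lower too (median -0.77). The 39 genes of 1000 to 2000 bp had 17 higher and 17 lower (median 0.06), against 31.1% and 29.2% of 2218 coding genes (median 0.04). The 8 genes under 1000 bp had 4 higher and 3 lower (median 0.47), against 55.3% and 9.29% of 2282 (median 0.55). Across the 57 genes the log2 fold change had a Pearson correlation with log10 length of -0.67, or -0.58 without GLT1, and across 5781 coding genes of -0.51. These are correlations across genes of the same 4 libraries, and genes are not independent replicates.

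Some pathways kept their position when that trend was removed in the fit, and others did not. With the trend over coding genes removed, 24 of the 57 were higher and 20 lower, against 35.5% and 21.4% of all features. The branched-chain genes then had 8 lower and 2 higher (median -0.65), with LEU1 at 0.44, and the threonine genes still had 4 lower and 1 higher (median -0.70). HOM2 and ILV5 kept nearly their whole decrease, at -1.95 and -1.63, while LYS2 had -0.55, ARO1 -0.38 and TRP5 -0.033, the last with no call (adjusted p = 0.746). Of the aromatic genes 5 were then higher and 1 lower (median 0.34), and TRP1, at 0.30, was not called (adjusted p = 0.116). GLT1 still had -1.28. The histidine genes had 5 higher and 1 lower (median 0.52), with HIS4 at 0.58, and ASN1 and ASN2 had 0.022 and 0.18. Whether length itself or something that goes with it moved these values was not tested.

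**Figure D3:**
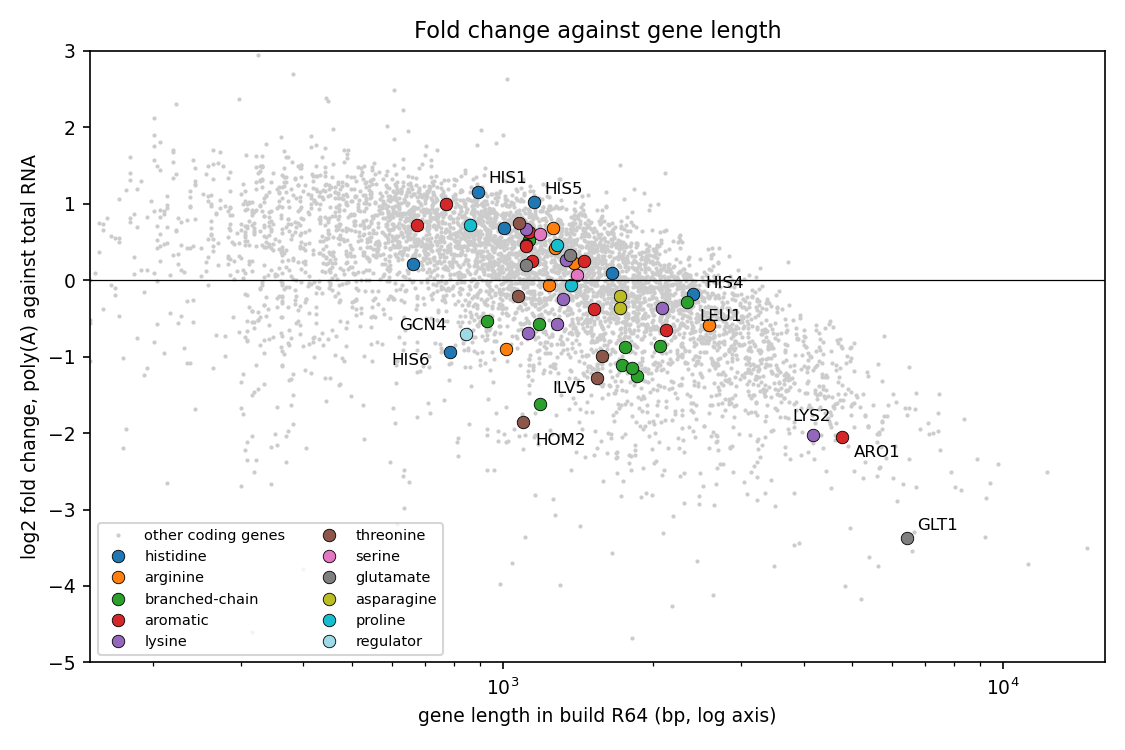
Log2 fold change, poly(A) against total RNA, against gene length (log axis), for 56 of the genes by pathway and for other coding genes in grey; of 5781 coding genes, 69 lie outside the axes. The long genes LYS2 and ARO1 lie low along with the downward course of the cloud, and HOM2, ILV5, HIS6, GCN4 and GLT1 lie below most genes of their length.

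Isozyme pairs catalyse the same reaction from different genes, and their ratio within a library does not depend on the scaling between fractions. For each of 5 pairs the log2 ratio of reads per kilobase was compared between fractions with the exact two-sided permutation test over libraries, in which no p under 0.333 can be reached. BAT1 (YHR208W), the branched-chain aminotransferase of mitochondria, exceeded BAT2 (YJR148W), that of the cytosol, 1.73-fold and 1.82-fold in poly(A) RNA and 3.87-fold and 3.78-fold in total RNA. The log2 ratio of BAT1 to BAT2 was 0.82 ± 0.053 in poly(A) RNA and 1.94 ± 0.023 in total RNA (SD, n = 2 each), a difference of -1.11 that is many times the spread between replicates (exact p = 0.333). The genes are 1182 and 1131 bp long, and each passed edgeR's test in its own direction, BAT1 at -0.58 and BAT2 at 0.53 (SE 0.07 and 0.08, adjusted p = 7.75e-07 and 8.74e-06).

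The other pairs changed less. LEU4, the main isopropylmalate synthase, exceeded LEU9 2.87-fold and 2.66-fold in poly(A) RNA and 3.13-fold and 2.89-fold in total RNA, with 38.4 and 34.6 against 83.6 and 90.7 for LEU4 and 13.4 and 13.0 against 26.7 and 31.3 for LEU9. Both fell, by 1.26 and 1.15 (SE 0.08 and 0.09), and the log2 ratio differed by -0.12 between fractions (exact p = 0.333). LEU9 also had a line shared with an overlapping feature. That line held 16.3% and 18.4% of the reads of both lines in poly(A) RNA and 13.3% and 13.4% in total RNA. As far as those reads came from LEU9, the ratios of LEU4 to LEU9 are too high, and with them added the difference was -0.19. The homocitrate synthases LYS20 and LYS21 had ratios of 0.918 and 0.923 in poly(A) RNA against 1.24 and 1.10 in total RNA, but 37.8% and 36.7% of their 50-base stretches occur elsewhere in the genome, so reads of the pair cannot all be assigned with certainty. LYS20 had 18.8 and 19.9 in poly(A) RNA against 27.5 and 30.1 in total RNA (-0.58, SE 0.09), and LYS21 had 20.5 and 21.5 against 22.2 and 27.3 (-0.25, SE 0.10, adjusted p = 0.0369). DESeq2's Wald test did not call LYS21 (adjusted p = 0.0528), nor did edgeR without poly(A) replicate 1 or total RNA replicate 2 (adjusted p = 0.199 and 0.628).

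ARO3 and ARO4, which start the shikimate pathway under feedback by phenylalanine and tyrosine, had ratios of 0.430 and 0.504 in poly(A) RNA and 0.464 and 0.477 in total RNA, so these ranges overlapped (exact p = 1). ARO3 had 53.5 and 61.1 in poly(A) RNA against 41.6 and 42.6 in total RNA (0.44, SE 0.09), and ARO4 had 124 and 121 against 89.6 and 89.4 (0.46, SE 0.08). The asparagine synthetases ASN1 and ASN2 were nearly equal, with ratios of 0.967 and 1.01 in poly(A) RNA against 1.07 and 1.14 in total RNA (exact p = 0.333). ASN1 had 100.4 and 105 in poly(A) RNA against 124 and 139 in total RNA (-0.36, SE 0.08, adjusted p = 0.00036), and under the coding sum it had -0.037 with no call (adjusted p = 0.648). ASN2 had 104 and 104 against 117 and 122 (-0.20, SE 0.07, adjusted p = 0.0198). The call of ASN2 was lost without poly(A) replicate 1, poly(A) replicate 2 or total RNA replicate 2 (adjusted p = 0.1, 0.0595 and 0.12).

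**Figure D4:**
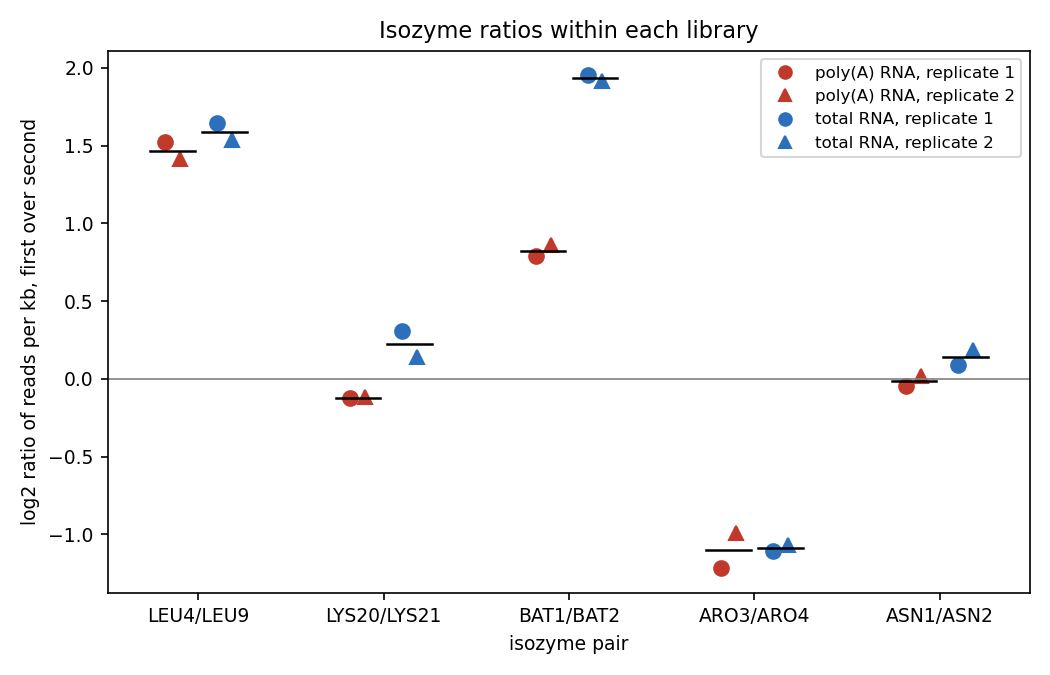
Log2 ratio of reads per kilobase, the first isozyme over the second, in each library for 5 pairs, with poly(A) RNA in red on the left, total RNA in blue on the right, and the mean of each fraction as a line. The ratio of BAT1 to BAT2 is 0.82 in poly(A) RNA and 1.94 in total RNA, and the means of the other pairs differ by 0.34 or less between fractions.

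The arginine genes stood out by how they differed between replicates. All 7 were higher in replicate 2 than in replicate 1 in both fractions, against 34.0% of abundant coding features and 29.3% of all coding features tested. ARG3, ARG8 and ARG5,6 averaged 1.08, 4.92 and 9.69 CPM, under the 10 that defines the abundant features. The median log2 ratio of replicate 2 to replicate 1 was 0.0012 in poly(A) RNA and 0.042 in total RNA for abundant coding features. ARG1 differed by 0.54 in poly(A) RNA and 0.86 in total RNA, ARG3 by 0.49 and 1.02, and ARG4 by 0.34 and 0.40. The total RNA value of ARG3 rests on 8 and 22 counts. Of the 2936 abundant coding features with reads in every library, 2 (ARG1 among them) had a poly(A) ratio as high as ARG1. CPA1 moved least, by 0.03 and 0.10.

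Outside arginine synthesis 30 of the other 50 genes (60%) were also higher in replicate 2 in both fractions, with 6 of 7 lysine, 5 of 7 histidine, 4 of 5 threonine, 6 of 10 aromatic and 3 of 10 branched-chain genes among them, but by smaller amounts, with a median of 0.066 in poly(A) RNA and 0.10 in total RNA. Across the 57 genes the replicate ratio in poly(A) RNA had a Pearson correlation of 0.55 with that in total RNA, or 0.44 without ARG3. Across the 50 genes outside arginine synthesis the correlation was 0.03, against 0.32 across the 2936 coding features. HIS5 and HIS1 differed by 0.38 and 0.29 in poly(A) RNA and by 0.13 and 0.17 in total RNA, and HIS3 by 0.20 in poly(A) RNA but -0.22 in total RNA. The arginine share of coding counts was 0.103% and 0.130% in poly(A) RNA and 0.108% and 0.140% in total RNA. The labels do not say whether a replicate number marks 1 culture in both fractions, and what differed between the replicates was not tested.

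**Figure D5:**
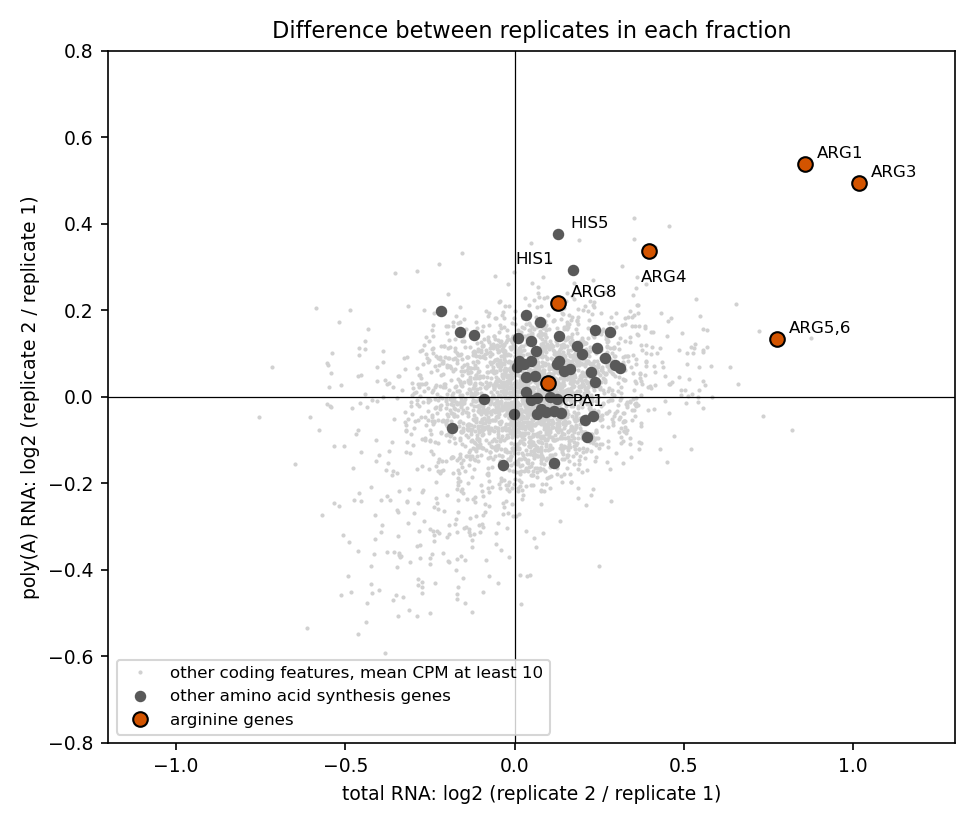
Log2 ratio of replicate 2 to replicate 1 in poly(A) RNA (vertical) and in total RNA (horizontal), for the arginine genes (orange), the other amino acid synthesis genes (dark grey) and other coding features (light grey, 1 of them outside the axes). The 6 arginine genes drawn lie above zero on both axes, with ARG1 at 0.54 and 0.86 and ARG3 at 0.49 and 1.02.

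Further genes of amino acid metabolism and its control, from a fixed list, were read from the same fit. Of 17 other enzymes tested, 4 were higher (23.5%) and 7 lower (41.2%), against 31.0% and 31.2% of all features (median -0.17). SER2, the phosphoserine phosphatase, and ARG2, acetylglutamate synthase, had the largest values, 1.00 and 0.68 (SE 0.12 and 0.15), and GLY1, threonine aldolase, and SHM1, the mitochondrial serine hydroxymethyltransferase, the lowest, -1.74 and -1.27 (SE 0.08 for both). ARG7, the ornithine acetyltransferase of arginine synthesis, stood at 19.8 and 25.5 in poly(A) RNA and 13.8 and 17.6 in total RNA, a log2 replicate ratio of 0.36 and 0.35 like those of ARG4, and was named after its values were seen. ARG2 differed by 0.09 in each.

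Of 12 regulators, 2 were higher (16.7%) and 4 lower (33.3%), against the same 31.0% and 31.2% (median -0.0052). ARG82, an inositol polyphosphate kinase needed for arginine control, and GCN3, the alpha subunit of translation factor eIF2B, rose by 1.04 and 0.99 (SE 0.23 and 0.10). GCN1, a ribosome-bound activator of Gcn2 with a gene of 8019 bp, had 6.46 and 6.80 in poly(A) RNA against 42.3 and 44.3 in total RNA (-2.71, SE 0.08), and PHO2, a partner of Bas1 at histidine genes, had -1.08 (SE 0.14). The arginine regulators ARG80 and ARG81, also named after their values were seen, did not pass (0.13 and 0.05, SE 0.15 and 0.11), nor did the coactivator genes ADA2 and GCN5 (0.03 and -0.14, SE 0.13 for both).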

How the data were processed

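The deposited table holds whole-number read counts per annotated feature, not normalised, with 1 column per library, per the file headers. The submitters' processing notes list FastQC 0.11.8, cutadapt 1.18 and Bowtie2 2.3.4.3 with no roles, and the build R64. The counter, its strand setting and its handling of reads with several matches are not given in the sources used here. Among 7382 features, 622 are joined names of overlapping features, and 7 of the 57 genes have such a line as well. Per the labels' protocols, 50 ng of RNA went into each library, with 14 PCR cycles and single-end reads of 50 bases.

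The counts were fitted whole with edgeR 4.0.16 in R 4.3.3 (filterByExpr, TMM, quasi-likelihood F test), and p-values were adjusted over all features. The SE is the size of the log2 fold change divided by the square root of F. No replicate block was used, since the labels do not link the numbers. Positions, lengths and upstream bases came from RefSeq's R64, in which all 57 genes were found. Each has 1 coding exon. On simulated counts of 6781 coding features, 200 of them changed, the procedure called 90.9% of the 2-fold changes and 72% of the 1.5-fold changes, with 0.154% of unchanged features called. The simulated counts had the same dispersion for every feature, no rRNA and no trend with length. These shares therefore do not give the error rates of the real comparison, where far more features differ. The labels call the replicates biological without naming their cultures, and p-values measure only the spread between these libraries.

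The genes and lists were chosen with earlier results of these data known. Values in every library are given for GCN4, HIS3, the isozyme pairs and, per pathway, the genes with the highest and lowest poly(A) level and fold change, and for further genes where they complete a pathway. Figures and exact tests used Python 3.11.15, scipy 1.17.1 and matplotlib 3.10.9. The alternatives were DESeq2 1.42.0, other scalings and filters, each library left out, a replicate block, joined reads added and the length trend (loess, span 0.5) removed. The values of 1 of the 57 genes are not reported here, and it is included in counts and sums.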

Additional observations from a re-analysis of the deposited data

How the results depend on the processing

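Across the alternatives other than library totals, between 16 and 27 of the genes were called higher (21 as reported) and between 20 and 30 lower (29 as reported). The calls over all features moved as well. They ran from 1829 of 6675 (DESeq2's Wald test) to 3131 of 6945 (coding sum) higher. Lower calls ran from 1483 (length trend removed) to 2193 (DESeq2's size factors) of 6945. With each library left out in turn the median log2 fold change of the genes ran from -0.24 to -0.087, against 0.058 to 0.070 for all features. With library totals edgeR called 57 higher and 0 lower, against 6860 and 75 of 6945 features, since this scaling moves every gene up. Genes with values below zero then had the log2 fold changes HIS4 5.13, HIS6 4.36, ARG3 4.40, ARG5,6 4.72, CPA1 5.25, LEU1 5.02, LEU4 4.05, LEU9 4.17, ILV1 4.19, ILV2 4.44, ILV3 4.44, ILV5 3.69, ILV6 4.78, BAT1 4.73, TRP2 4.93, TRP5 4.66, ARO1 3.26, LYS1 4.62, LYS2 3.28, LYS4 4.95, LYS20 4.73, LYS21 5.06, GCN4 4.60, HOM2 3.45, HOM3 4.32, THR1 5.10, THR4 4.03, GLT1 1.93, ASN1 4.95, ASN2 5.11 and PRO2 5.24. Scaling to the coding sum turned the sign of HIS4 0.14, CPA1 0.26, LEU1 0.033, LYS21 0.078, THR1 0.11, ASN2 0.12 and PRO2 0.26. Removing the length trend turned that of HIS3 -0.21, HIS4 0.58, ARG5,6 0.27, LEU1 0.44, LYS4 0.23, ASN1 0.022, ASN2 0.18 and PRO2 0.069. With libraries left out, values with no call changed sign, from -0.097 to 0.00059 for CPA1, from -0.031 to 0.16 for SER33 and from -0.16 to 0.057 for PRO2. Over 56 of the genes and all alternatives, 609 of 727 values kept their direction and side of the threshold. With the replicate block 22 genes were higher and 30 lower, against 2200 and 2191 of 6945 features. HIS4 then passed at -0.18 (adjusted p = 0.00983) and ARG4 at 0.23 (adjusted p = 0.00323), and the other genes kept their call. Deviations of same-numbered libraries from their fraction's mean correlated at 0.03 over 6781 coding features and at 0.55 over the 57 genes. Replicate ratios correlated at 0.32 over the 2936 abundant coding features and at 0.03 over the 50 genes outside arginine synthesis. Over the genes without ARG3 the replicate ratios correlated at 0.44. The labels do not link the replicate numbers, and whether they mark the same cultures was not tested. The difference in the genes' share of coding counts ran from -0.175 to -0.0374 percentage points with libraries left out, and it was 2.33 with all counts as denominator, where rRNA fills total RNA. The isozyme differences with libraries left out ran from -0.18 to -0.065 for LEU4 and LEU9, from -0.43 to -0.26 for LYS20 and LYS21, from -1.15 to -1.07 for BAT1 and BAT2, from -0.13 to 0.10 for ARO3 and ARO4, and from -0.20 to -0.11 for ASN1 and ASN2. For ARO3 and ARO4 the sign turned without poly(A) replicate 1 (0.10) and without total RNA replicate 2 (0.0048), and the cause was not tested. Depth limits ARG3 most, with 8 and 22 counts in total RNA.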
